A study of Rattus norvegicus with 96 samples.

Results

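Orphan G protein-coupled receptors are described here across 8 brain regions of rats with different histories of alcohol drinking. The members were chosen by name: every gene whose annotated symbol is Gpr followed by a number and at most 1 letter, represented on the array by a probe set that names 1 gene, with the probe set of highest mean kept per gene. The rule found 35 genes among the 14218 genes that the array named. A symbol of this kind was usually given to a receptor-like sequence before its ligand was known, so the set also holds proteins whose ligands have since been proposed and membrane proteins that lie in the Golgi, in lysosomes or in melanosomes. Many receptors of the same families carry other symbols or were not named by a single probe set, so the set is a sample of the orphan receptors rather than all of them.

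G protein-coupled receptors cross the cell membrane and, when a ligand binds, activate heterotrimeric G proteins that set the activity of adenylyl cyclases, phospholipases and ion channels. An orphan receptor is one with no ligand agreed upon, and several of them signal without any added ligand. In the brain, members of the family are known for confined expression, for example in striatal projection neurons, in oligodendrocytes or in microglia.

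RNA was measured on Affymetrix arrays of the rat genome in adult male Wistar rats, with 4 arrays for each of 3 groups in the medial prefrontal cortex (mPFC), nucleus accumbens core (NAcC) and shell (NAcSh), central (CeA) and basolateral amygdala (BLA), dorsolateral (dlBNST) and ventral bed nucleus of the stria terminalis (vBNST) and ventral tegmental area (VTA). Naive rats were age-matched and received no alcohol. Non-dependent rats self-administered 10% alcohol for 4 weeks and were not exposed to vapor. Dependent rats self-administered the same alcohol and were then exposed to intermittent ethanol vapor for 4 weeks, and brains were collected after a further 3 weeks without vapor. The same 4 rats per group supplied all 8 regions, while the tests below treat arrays as independent, so p-values measure the spread between these arrays. All values are log2 signals of 1 probe set per gene, and a level is compared only with the level of the same gene in other samples.

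Of the 96 arrays, 4 were left out because they stood apart from the rest: CeA non-dependent 2, BLA non-dependent 3, VTA non-dependent 2 and vBNST dependent 1, whose highest correlation with any other array ranged from 0.345 to 0.961, against at least 0.9895 in the other 92. The 12 mPFC arrays differed from the other 80 in control probe sets: the middle Gapdh probe set read 11.45 to 13.14 in the mPFC and 5.85 to 9.04 elsewhere, and the difference between the 3 prime and the middle Gapdh probe set was 0.45 to 1.40 against 1.67 to 4.24. Brain region and handling of the RNA therefore cannot be told apart for the mPFC. The CeA arrays used also differed in a control. Their 5 prime Gapdh probe set read 7.90 to 8.46, against at least 8.50 on the other arrays used. The same limit therefore holds for the CeA contrasts below, and no count was made without the CeA. For naive rats, the members called between regions are also counted without the mPFC. Where the contrast of a member in another region was no longer called without the mPFC, its value is given. A further pair of arrays stood apart in markers and was kept: NAcSh naive 2 had a mean of cortical glutamatergic neuron markers of 5.26 against 2.98 to 3.28 in the other naive NAcSh arrays, and a mean of medium spiny neuron markers of 7.82 against 8.77 to 9.38, and NAcSh dependent 3 had a cortical mean of 4.38 against 3.06 to 3.09 in the other dependent arrays and a medium spiny mean of 8.83. The medium spiny neuron markers averaged 9.72 in the naive NAcC and 8.71 in the naive NAcSh against 4.75 to 6.52 elsewhere. Dopamine neuron markers averaged 8.98 in the VTA against 3.31 to 4.36. However, Pitx3, Tbr1 and Neurod2 were at or under 4 in the regions they should mark. The medium spiny neuron marker Rgs9 was also under 4 in the naive NAcSh, at 3.82.

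A mean above 4, the level used as a floor for group comparisons, was reached by 22 of the 35 members in at least 1 region and by 14 in all 8 regions. The 14 were Gpr19, Gpr34, Gpr37, Gpr61, Gpr85, Gpr89b, Gpr108, Gpr137b, Gpr146, Gpr155, Gpr158, Gpr161, Gpr176 and Gpr180. The other 13 stayed at or under 4 in every region: Gpr4, Gpr12, Gpr20, Gpr26, Gpr27, Gpr45, Gpr50, Gpr62, Gpr75, Gpr135, Gpr143, Gpr153 and Gpr173. For these 13, a small difference between samples cannot be told from background signal, and no group test was made.

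The stretch of 250 bases before the transcription start is shown for 4 members, so that the letters can be set beside their patterns. Gpr6 and Gpr155 were called higher in the accumbens core, and Gpr37 and Gpr182 in the VTA. Gpr137b, also called higher in the VTA and with 1 listed start, is not shown. Of the 35 members, 28 had a promoter in the RefSeq table of build GRCr8; Gpr149 and Gpr162, the members that varied most between regions, were not among them. All 4 lie on the minus strand, at chr20:46075252-46075501 (Gpr6), chr3:78677804-78678053 (Gpr155), chr4:55126421-55126670 (Gpr37) and chr7:65474111-65474360 (Gpr182), and are written 5′ to 3′ in the direction of transcription. Capitals mark matches, on either strand, to the TATA box (TATAAA), the CCAAT box (CCAAT), the GC box (GGGCGG), the cAMP response element (TGACGTCA) or the NGFI-B response element (AAAGGTCA), none of which overlapped here.
Gpr6: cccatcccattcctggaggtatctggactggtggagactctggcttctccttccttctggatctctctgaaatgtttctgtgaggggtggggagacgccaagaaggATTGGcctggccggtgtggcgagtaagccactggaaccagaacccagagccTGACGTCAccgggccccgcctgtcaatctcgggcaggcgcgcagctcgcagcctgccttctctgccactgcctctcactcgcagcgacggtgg
Gpr155: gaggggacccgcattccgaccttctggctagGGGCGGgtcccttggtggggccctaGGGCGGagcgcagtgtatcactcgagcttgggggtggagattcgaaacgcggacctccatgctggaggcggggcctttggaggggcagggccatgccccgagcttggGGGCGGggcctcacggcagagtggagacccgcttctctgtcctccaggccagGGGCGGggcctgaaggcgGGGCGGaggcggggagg
Gpr37: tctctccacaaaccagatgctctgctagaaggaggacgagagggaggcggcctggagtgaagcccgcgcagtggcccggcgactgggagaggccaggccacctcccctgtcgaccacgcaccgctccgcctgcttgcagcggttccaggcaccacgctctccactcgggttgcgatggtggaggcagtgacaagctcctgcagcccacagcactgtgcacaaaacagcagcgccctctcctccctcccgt
Gpr182: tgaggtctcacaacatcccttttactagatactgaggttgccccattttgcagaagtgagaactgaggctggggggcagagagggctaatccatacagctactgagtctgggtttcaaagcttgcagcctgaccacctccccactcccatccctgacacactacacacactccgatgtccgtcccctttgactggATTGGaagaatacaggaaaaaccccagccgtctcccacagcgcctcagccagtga

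Gpr6 held a cAMP response element whose first base lies 93 bases before the start, and was the only 1 of the 28 members to hold one, against 1.59% of 33469 promoters. It also held a CCAAT box at 144 bases before the start, and Gpr182 held one at 55 bases. Gpr155 held 5 GC boxes, while Gpr37 held none of the 5 motifs. Over the 28 members, 13 held a GC box, 12 a CCAAT box, 3 a TATA box and 0 an NGFI-B response element, against 30.5%, 34%, 12.9% and 1.24% of all promoters. A member was counted if any of its listed promoters matched, and Gpr161 had 2 listed starts. The percentages are shares of single promoters, so members and percentages are unlike units and are not a measure of enrichment. These are matches of letters and not measured binding sites.

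The first question was where the receptors were expressed before any alcohol. In naive rats, 20 of the 35 members (57.1%) differed between the 8 regions, called at an adjusted p under 0.05 with a range of region means of at least 1, and 47.5% of all genes were called by the same rule (limma's moderated F-test over 32 arrays, Benjamini-Hochberg adjustment over all genes). The median range of region means was 1.28 for the members and 0.95 for all genes. The 20 include Gpr143, with a range of 1.17, although its mean lay under the floor of 4 in every region. By role, the calls comprised 7 of 8 proteins of other folds or inner membranes and 7 of 13 neuronal class A receptors. They also comprised 2 of 4 glial receptors, the single class C receptor and 1 of 2 receptors that raise cAMP without a ligand. Of the rest, 1 of 2 immune and vascular receptors and 1 of 2 metabolite and other deorphanized receptors were called. Of the SREB receptors, a family named for its expression in brain, 0 of 3 were called. Without the mPFC arrays, 14 of the 20 were still called, and Gpr34, Gpr107, Gpr137, Gpr143, Gpr146 and Gpr176 were not. Each region was then set against the mean of the other 7.

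**Figure D1:**
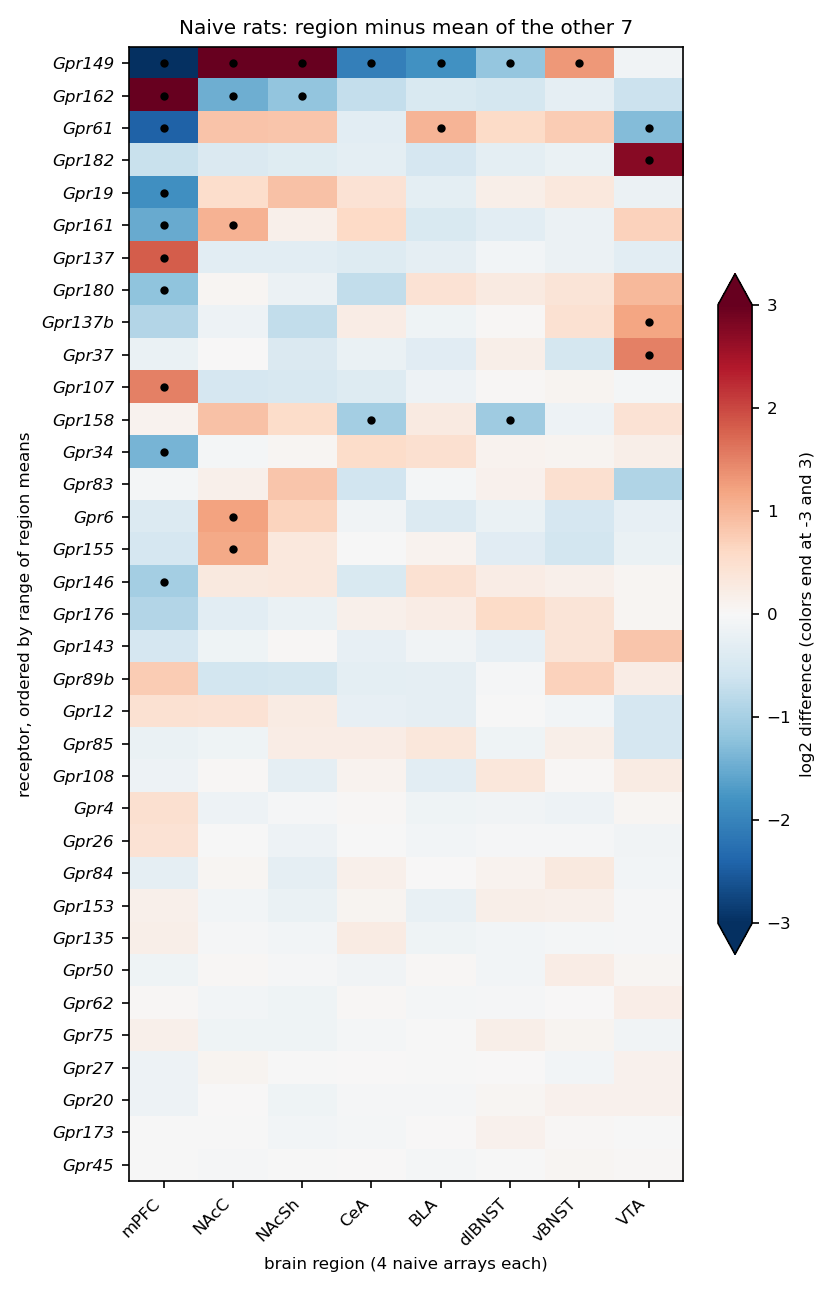
Log2 difference of each region (columns, 4 naive arrays each) from the mean of the other 7 for the 35 members (rows, ordered by the range of region means); colors end at -3 and 3, and dots mark called differences. Gpr149 is high in the accumbens core (3.14) and shell (3.87), Gpr162 in the mPFC (5.26), and the VTA stands out for Gpr182 (2.73) and Gpr37 (1.51).

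Among the neuronal class A receptors, Gpr149 differed most between regions, with a range of 6.16. Its 4 naive arrays read 9.72, 9.27, 9.15 and 9.05 in the NAcC and 10.28, 8.79, 10.45 and 10.22 in the NAcSh, while all 4 mPFC arrays lay between 3.48 and 4.18. Both parts of the accumbens were above every array of every other region. The vBNST followed with 7.89, 7.80, 7.57 and 7.53, and the VTA with 6.04, 6.49, 6.45 and 6.88. The dlBNST (mean 5.53), BLA (4.96) and CeA (4.77) came next and the mPFC last (3.77). In that order most neighbours were separated beyond their spread, but not NAcSh and NAcC, which differed by 0.64 (SE 0.25, adjusted p = 0.131), nor BLA and CeA, which differed by 0.19 (SE 0.25, adjusted p = 0.639), nor dlBNST and BLA, with 0.57 (SE 0.25, adjusted p = 0.11). The vBNST and dlBNST, neighbouring parts of 1 nucleus, differed by 2.17 (SE 0.25, adjusted p = 8.575e-07).

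Against the mean of the other 7 regions, Gpr149 was higher in the NAcSh by 3.87 (SE 0.19, adjusted p = 8.958e-15), in the NAcC by 3.14 (SE 0.19, adjusted p = 1.974e-13) and in the vBNST by 1.31, and lower in the mPFC, CeA, BLA and dlBNST by 3.18, 2.04, 1.82 and 1.17. The SD was 0.77 in the NAcSh and 0.18 to 0.34 elsewhere. The SE pools all regions, so it does not measure the NAcSh spread alone. Without NAcSh naive 2, whose markers stood apart, the NAcSh contrast was 4.25. Without the mPFC the NAcSh and NAcC contrasts were 3.48 and 2.74 and were still called, while that of the vBNST was 0.87 and no longer reached 1. The contrasts were of similar size in rats that drank: 4.34 and 4.06 in the NAcSh and 3.22 and 2.80 in the NAcC of non-dependent and dependent rats. Without NAcSh dependent 3 that of dependent rats in the NAcSh was 4.22.

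Gpr162, a class A orphan related to Gpr153, stood out in 1 region. The naive mPFC arrays read 9.77, 9.18, 9.40 and 9.39, and the 28 naive arrays of the other regions lay between 3.38 and 4.88. The difference of 5.26 (SE 0.14, adjusted p = 2.123e-23) was repeated in non-dependent (4.67) and dependent rats (4.65). It rests on mPFC arrays, which also read higher for Gapdh and beta-actin, and no second probe set named the gene. Among the remaining 7 regions the range was 1.04, and the lower contrasts of the NAcC (-1.46) and NAcSh (-1.17) came to -0.72 and -0.43 when the mPFC was left out.

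**Figure D2:**
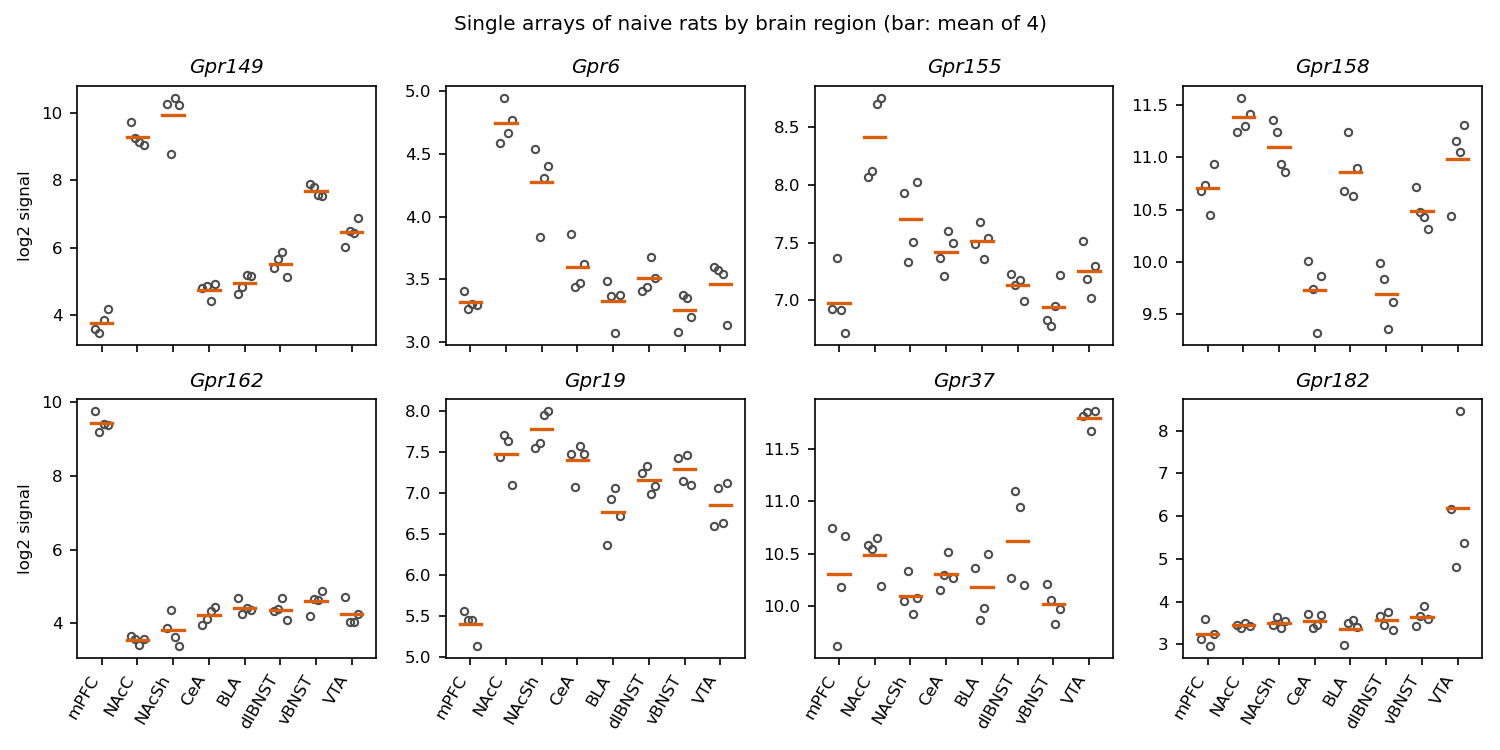
Log2 signal of 8 members on every naive array, by region; circles are arrays and bars are means of 4, and each panel has its own scale, which does not start at 0. Gpr149 lies between 8.79 and 10.45 in both parts of the accumbens, and Gpr162 between 9.18 and 9.77 in the mPFC with no array above 4.88 elsewhere.

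Gpr161, a receptor of the primary cilium that restrains hedgehog signaling, was highest in the NAcC, at 7.69, 7.41, 8.10 and 7.94, and lowest in the mPFC, at 5.44, 5.52, 6.17 and 5.07. These 2 groups of arrays did not overlap, and the contrasts with the other regions were 1.04 in the NAcC and -1.52 in the mPFC. The NAcC contrast was 0.84 without the mPFC, 0.93 without NAcC naive 3 and 0.98 without NAcC naive 4, each under the limit of 1. In both non-dependent and dependent rats it was 0.89 and was not called.

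Gpr61, which signals to adenylyl cyclase without a ligand and is known for effects on feeding, varied widely among arrays of 1 region. Its naive BLA arrays read 7.50, 8.66, 7.21 and 7.20, those of the VTA 5.30, 5.61, 6.44 and 5.07, and those of the mPFC 5.08, 4.25, 4.68 and 4.48. The mPFC and VTA arrays lay under every BLA array. The contrasts were -2.42 in the mPFC, -1.30 in the VTA and 1.03 in the BLA (SE 0.31 each). The BLA contrast rested on replicate 2, without which it was 0.69, and was 0.70 without the mPFC.

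Gpr19 was lower in the mPFC (5.56, 5.46, 5.46 and 5.14) than in any other region, whose means ran from 6.77 in the BLA to 7.78 in the NAcSh. Its mPFC contrast was -1.85 (SE 0.12, adjusted p = 4.146e-14). Gpr83, proposed as a receptor for the peptide PEN, had its highest mean in the NAcSh (5.30) and its lowest in the VTA (3.79). Gpr176, a receptor of the circadian clock in the suprachiasmatic nucleus, ran from 5.47 in the mPFC to 6.75 in the dlBNST, but in naive rats neither it nor Gpr83 set a single region apart by 1 or more. The NAcSh contrast of Gpr83 was 0.83 in naive rats (0.59 without NAcSh naive 2) and was called in non-dependent (1.51) and dependent rats (1.42, or 1.35 without NAcSh dependent 3). The mPFC contrast of Gpr176 was -0.88 in naive and -0.99 in non-dependent rats and was called in dependent rats (-1.09).

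Gpr6 belongs to a small family that keeps cAMP high without a ligand and is known from striatal neurons that project to the pallidum. Its signal was low throughout, at 4.59, 4.95, 4.66 and 4.77 in the NAcC and 4.54, 3.84, 4.31 and 4.41 in the NAcSh, with means of 3.25 to 3.60 in the other 6 regions. The NAcC was higher than the NAcSh by 0.47 (SE 0.13, adjusted p = 0.0184), and higher than the mean of the other 7 regions by 1.21 (SE 0.10, adjusted p = 4.947e-11), which held in non-dependent (1.38) and dependent rats (1.03). This is the member with the cAMP response element printed above. Gpr12 of the same family stayed between 2.70 in the VTA and 3.53 in the mPFC.

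Of the glial receptors, Gpr37 was highest in the VTA. It is known from oligodendrocytes, where it bears on their maturation and myelination, and as a substrate of the ubiquitin ligase parkin. The VTA arrays read 11.81, 11.85, 11.67 and 11.86, above every other region, whose means ran from 10.02 in the vBNST to 10.63 in the dlBNST. The VTA contrast was 1.51 (SE 0.15, adjusted p = 1.401e-09) and was 1.97 in non-dependent and 1.64 in dependent rats. Beside it, the oligodendrocyte markers averaged 10.93 in the VTA, with 7 of 7 above 4, against 8.44 to 9.53 elsewhere; their part in the difference was not tested. In bulk tissue such as this, more cells of a type and more RNA per cell cannot be told apart. Gpr34, the lysophosphatidylserine receptor of microglia, had means of 8.14 to 8.67 in 7 regions and was lower in the mPFC, at 7.03, 6.77, 7.40 and 6.73 (contrast -1.38, SE 0.18, adjusted p = 5.217e-08). Gpr84, a receptor for medium-chain fatty acids on microglia, lay between 3.87 and 4.37, and Gpr62 between 1.86 and 2.14.

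Gpr182, an atypical chemokine receptor of endothelial cells, exceeded 4 in the VTA alone, and there its naive arrays were spread widely, at 6.17, 4.81, 8.46 and 5.37. Even the lowest of them was above the mean of every other region (3.23 to 3.65). The contrast was 2.73 (SE 0.30, limma's adjusted p = 7.808e-09). This SE pools the spread of all 8 regions, while the SD was 1.61 in the VTA and 0.05 to 0.28 elsewhere. The SE and the p-value therefore do not measure the spread of the VTA arrays alone. Without 1 array in turn the contrast ranged from 1.97 to 3.19. In non-dependent rats it was 1.71 and in dependent rats 1.03. The endothelial markers averaged 6.33 to 6.67 on the same 4 arrays. On the naive arrays of other regions they averaged 6.49 to 7.08 in the mPFC and 5.22 to 6.28 in the rest. Their part was not tested. The Gpr182 values above come from its brighter probe set alone. Its dimmer probe set had a mean of 2.64 in the naive VTA and of at most 2.53 in the other regions. All of these lie under the floor of 4, where a difference cannot be told from background signal. Gpr4, a proton-sensing receptor of vessels, stayed between 2.73 and 3.29.

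Gpr158, a class C receptor for which glycine has been proposed as the ligand, was high in all regions and lowest in the CeA and the dlBNST. The CeA arrays read 10.01, 9.74, 9.31 and 9.86 and the dlBNST arrays 9.98, 9.83, 9.35 and 9.61, whereas the NAcC arrays read 11.25, 11.57, 11.30 and 11.42. Both extended amygdala regions lay under the NAcC with no overlap. Against the other 7 regions the differences were -1.02 in the CeA and -1.06 in the dlBNST (SE 0.13 each, adjusted p = 1.076e-06 and 1.524e-06). The BLA exceeded the CeA by 1.13 (SE 0.18, adjusted p = 2.328e-05), and the vBNST exceeded the dlBNST by 0.79 (SE 0.18, adjusted p = 0.00306). The CeA contrast was -0.88 without CeA naive 3 and was just short of the limit without BLA naive 2, and the dlBNST contrast was -0.94 without dlBNST naive 3. Both groups that drank kept the dlBNST call and lost that of the CeA. The dlBNST contrast was -1.45 in non-dependent rats and -1.53 in dependent rats. The CeA contrast was -0.77 in the former and -0.60 in the latter.

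Gpr146, known in liver for an effect on blood cholesterol, had means of 8.29 in the CeA to 9.11 in the BLA and 7.80 in the mPFC (contrast -1.03), and the call was lost without mPFC naive 2 (-0.88) or naive 4 (-0.98). The SREB receptor Gpr85 was high everywhere in naive rats, from 8.55 in the VTA to 9.29 in the BLA. Its VTA contrast was -0.50 in naive and -0.47 in dependent rats and was called in non-dependent rats (-1.08). Its relatives Gpr27 and Gpr173 stayed under 4.

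Among the proteins of inner membranes, Gpr155, a cholesterol sensor of lysosomes, was highest in the NAcC, at 8.07, 8.12, 8.70 and 8.76. It exceeded the NAcSh by 0.71 (SE 0.16, adjusted p = 0.00474) and the mean of the other 7 regions by 1.13 (SE 0.12, adjusted p = 1.692e-08). In non-dependent (0.84) and dependent rats (0.80) the contrast had the same sign but was under 1. Gpr137b, a lysosomal protein that acts on mTORC1 signaling, was highest in the VTA, at 7.15, 7.75, 7.29 and 7.41 (contrast 1.18, SE 0.14, adjusted p = 5.124e-08). A second probe set of Gpr137b also had its highest mean in the VTA, 7.94 against 4.40 to 5.82 in the other regions. Gpr180 ran from 5.03 in the mPFC to 6.93 in the VTA, and its mPFC contrast was -1.20 (SE 0.12, adjusted p = 2.728e-10). Gpr143, the melanosome protein of ocular albinism, stayed under 4, with its highest mean in the VTA (3.51).

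Gpr107, which takes part in transport through the Golgi, and Gpr137, related to Gpr137b, were higher in the mPFC than elsewhere. The probe set used for Gpr137 read 5.32, 4.96, 5.09 and 5.33 in the mPFC, with means of 3.24 to 3.51 in other regions (contrast 1.82, adjusted p = 2.857e-19). The dimmer probe set of Gpr137 had a mean of 3.38 in the mPFC and 3.26 to 3.63 elsewhere, all under the floor of 4, where a difference cannot be told from background signal. For Gpr107 the arrays read 5.80, 5.44, 4.96 and 6.23 (contrast 1.50, limma's adjusted p = 2.503e-12). The SD was 0.54 in the mPFC and 0.05 to 0.17 elsewhere. The p-value pools all regions and does not measure the mPFC spread alone. The dimmer probe set of Gpr107 was also highest in the mPFC, with a mean of 4.04 against 3.65 to 3.93 elsewhere. When probe sets of a gene were averaged, the mPFC contrasts were 0.87 for Gpr107 and 0.89 for Gpr137, both under 1. In rats that drank, the mPFC contrast of Gpr107 was not called (0.65 in non-dependent and 0.9988 in dependent rats). That of Gpr137 was not called in non-dependent rats (0.82) and was called in dependent rats (1.27). The Golgi proteins Gpr89b and Gpr108 ran from 4.67 to 5.81 and from 5.14 to 5.72.

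Counted by region, 10 members were called in the mPFC, where 25.2% of all genes were, 5 in the NAcC (6.09% of all genes), 4 in the VTA (10.2%), 2 each in the NAcSh (4.11%), CeA (2.39%), BLA (2.13%) and dlBNST (1.53%), and 1 in the vBNST (3.89%). As shares of the 35 members these are 28.6% in the mPFC, 14.3% in the NAcC, 11.4% in the VTA, 5.71% in each of the next 4 and 2.86% in the vBNST. The share in the mPFC was close to that of all genes. Of the 28 contrasts called in naive rats, 20 were also called in non-dependent rats, 20 in dependent rats and 17 in both. Of the 18 outside the mPFC, 13 were called when the mPFC arrays were left out of the comparison.

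The partners that carry the signal of such receptors were called between regions by the same rule, which took 47.5% of all genes. Among them were 8 of 11 G protein alpha subunits (72.7%), 11 of 14 beta and gamma subunits (78.6%), 5 of 7 adenylyl cyclases (71.4%) and 1 of 7 arrestins and receptor kinases (14.3%), the last a smaller share than that of all genes. In the NAcC, where Gpr6 and Gpr149 were high, 5 partners were called higher and 6 lower. Among the former, Gnal, the alpha subunit that couples striatal receptors to adenylyl cyclase, was higher by 2.58 (SE 0.18, adjusted p = 1.692e-12), the gamma subunit Gng7 by 4.71 (SE 0.27, adjusted p = 4.771e-14) and the striatal cyclase Adcy5 by 2.22 (SE 0.14, adjusted p = 2.225e-13), beside Gnb4 and Adcy9. Those lower were Gnas (-1.41), Gng2 (-2.36), Gng3 (-1.41), Adcy6 (-1.44), Adcy8 (-1.57) and Arrb2 (-1.30). In the NAcSh the corresponding differences were 1.88 for Gnal and 1.25 for Gng7, and Adcy5 was not called.

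The second question was whether the receptors differed between naive, non-dependent and dependent rats within a region. Over 8 regions, 148 tests of members were made in each comparison, 1 for each member and region with a mean above 4. At an adjusted p under 0.05, 0 of 148 passed from naive to non-dependent, 0 from non-dependent to dependent and 0 from naive to dependent (limma, Benjamini-Hochberg adjustment over the genes of a region), while over all genes 0.0101%, 0% and 0.0202% of 69306 tests passed. At an unadjusted p under 0.05 the members' counts were 18 (12.2%), 13 (8.78%) and 18 (12.2%), against 7.84%, 7.17% and 11.3% of all tests, and the sign was negative in 13, 8 and 15 of them, against 3386 of 5435, 2775 of 4971 and 4996 of 7866 over all genes. The t-test of the study's methods, with the same adjustment, also called 0 members in each comparison. The median differences over the 148 tests were -0.03, 0.00 and -0.02, and over all genes -0.01, -0.01 and -0.03. The differences below are therefore values of these arrays with no call, named because each had the smallest p of its region and direction or 1 sign in all 8 regions; the comparisons of 1 region share their groups of arrays.

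**Figure D3:**
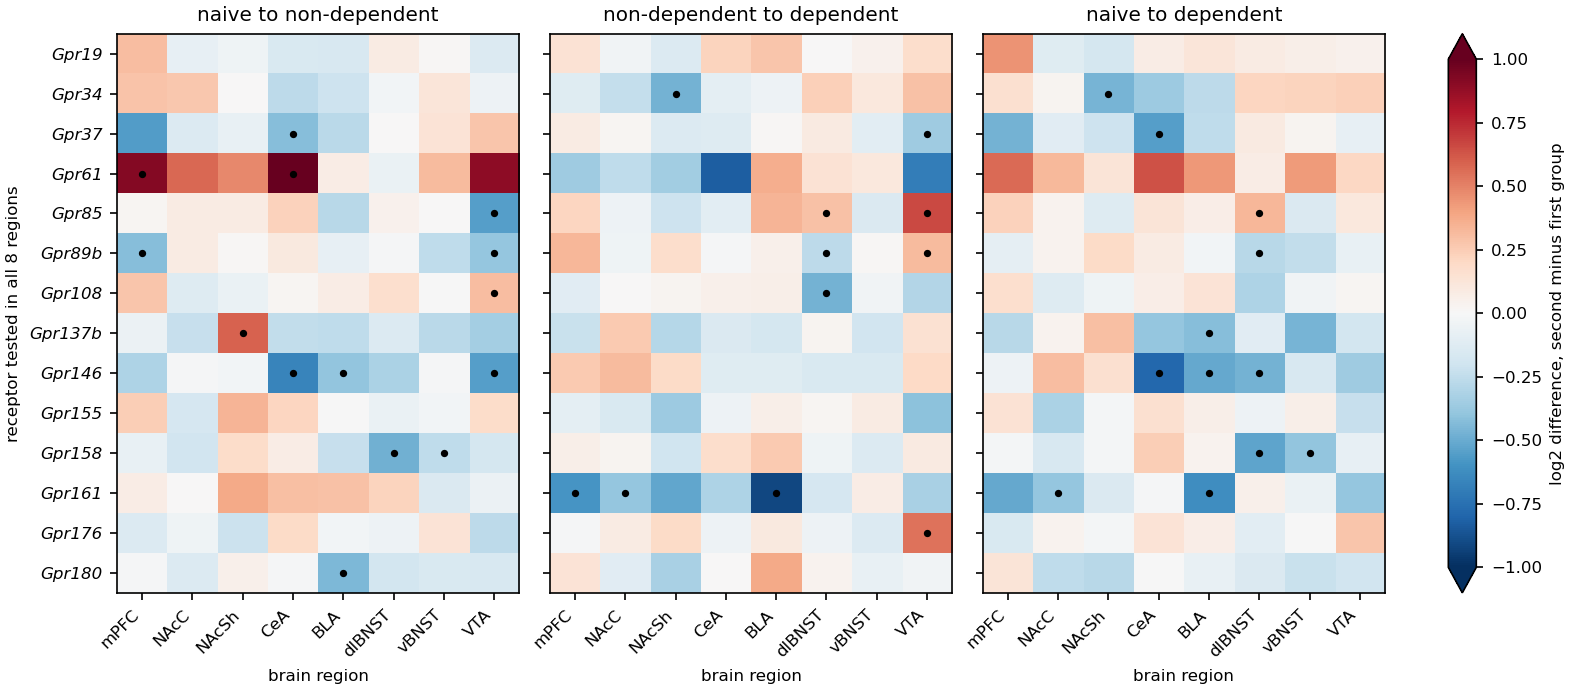
Log2 difference between groups (second minus first) for the 14 members tested in all 8 regions (rows) by region (columns), with a panel per comparison; colors end at -1 and 1, and dots mark an unadjusted p under 0.05. No difference passed the adjusted threshold; Gpr161 in the BLA (-0.91, middle panel) is the strongest negative value with a dot, and the Gpr61 row is above 0 throughout the last panel.

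The smallest p among the members belonged to Gpr161 in the BLA, from non-dependent to dependent rats. The non-dependent arrays read 6.48, 6.91 and 6.90 and the dependent arrays 5.56, 5.74, 5.98 and 6.13, with no overlap. The naive arrays, at 6.35, 6.67, 6.35 and 6.50, also lay above all dependent arrays. The difference was -0.91 (SE 0.16, limma's adjusted p = 0.379) from non-dependent rats and -0.62 (SE 0.15, adjusted p = 0.752) from naive rats. The array left out, BLA non-dependent 3, read 5.39 and lay below all dependent arrays, and with all 96 arrays the difference from non-dependent rats was -0.57. With the mean of probe sets the differences from non-dependent and naive rats were -0.38 and -0.31. As Gpr180 did in both comparisons with naive rats, Gpr161 had the same sign in 7 of 8 regions in both comparisons with dependent rats. These comparisons share the dependent arrays of Gpr161, and the share of all genes with 7 equal signs was not counted. In the NAcC the dependent arrays, at 7.14, 7.41, 7.42 and 7.63, overlapped with non-dependent (7.60 to 8.09) and naive arrays (7.41 to 8.10), with differences of -0.39 and -0.38 (SE 0.17 each, adjusted p = 0.802 and 0.523). In the mPFC the difference from non-dependent to dependent rats was -0.59 (SE 0.26, adjusted p = 0.941).

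**Figure D4:**
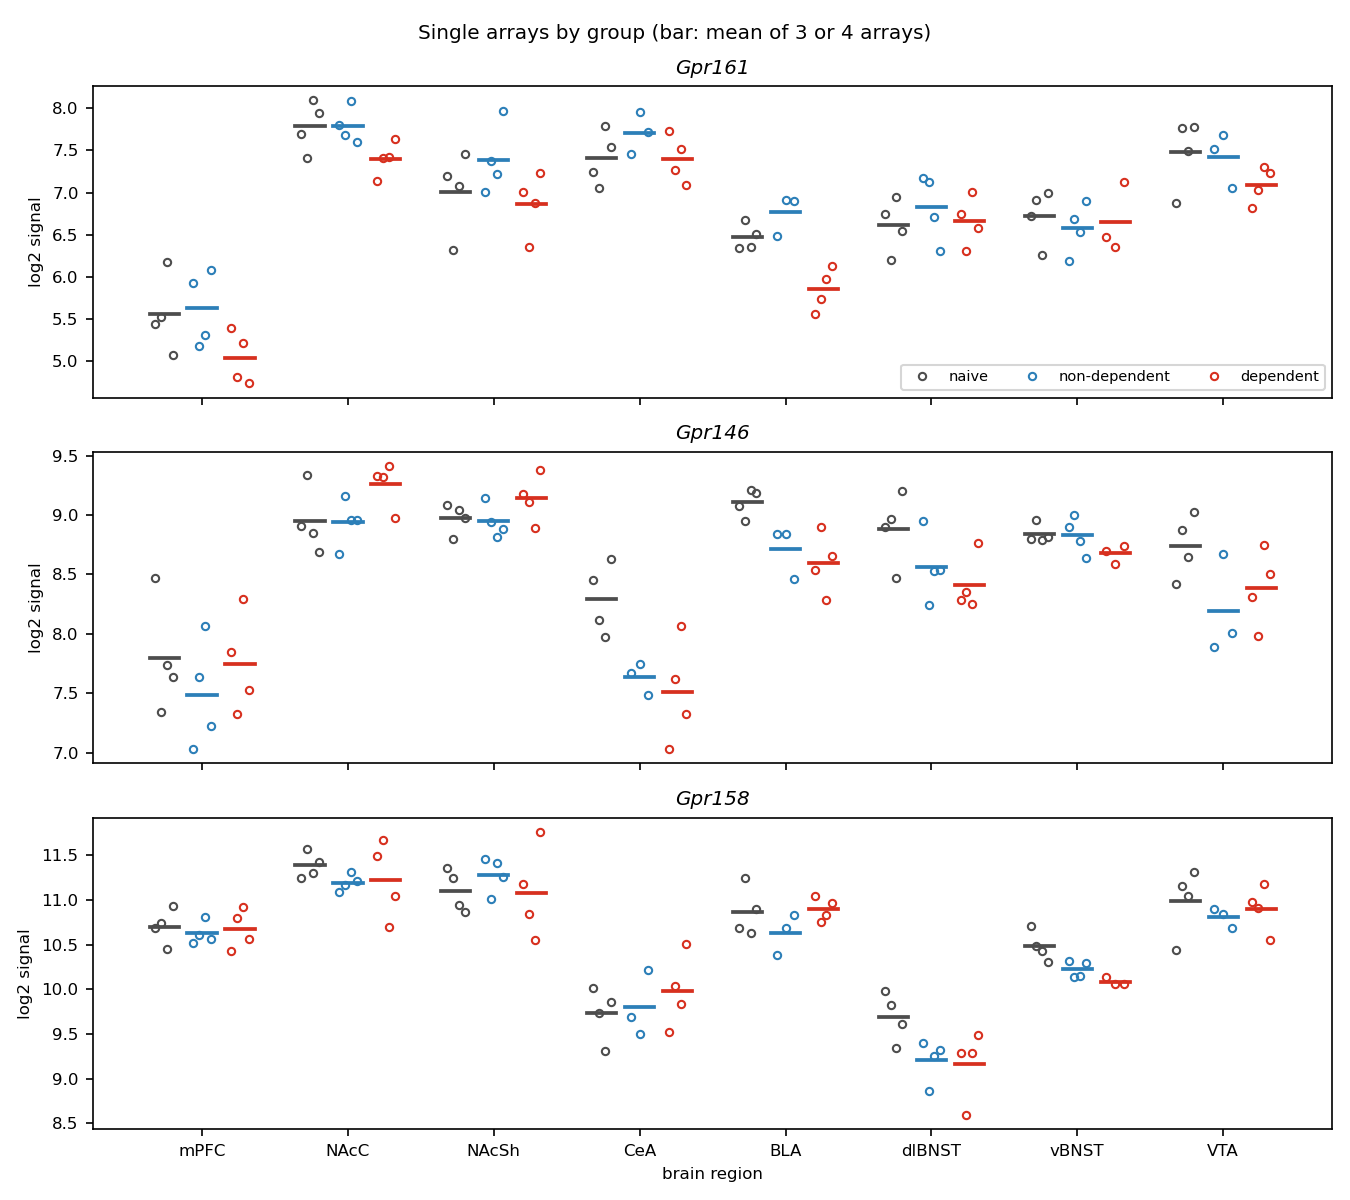
Log2 signal of Gpr161, Gpr146 and Gpr158 on the 92 arrays used, by region and group; circles are arrays and bars are means of 3 or 4, and the scales do not start at 0. In the BLA the dependent arrays of Gpr161 lie between 5.56 and 6.13, below the naive (6.35 to 6.67) and non-dependent arrays (6.48 to 6.91).

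Gpr146 was the only member with 1 sign in all 8 regions from naive to non-dependent rats, with differences of -0.66 to -0.01, or 1 of 14 members tested in all regions against 3.18% of all such genes. In the CeA the naive arrays read 8.45, 8.11, 7.97 and 8.63, the non-dependent arrays 7.67, 7.75 and 7.49 and the dependent arrays 7.03, 7.62, 8.07 and 7.33. Naive and non-dependent arrays did not overlap, and 1 dependent array lay within the naive range. The differences from naive rats were -0.66 (SE 0.22, adjusted p = 0.691) and -0.78 (SE 0.20, adjusted p = 0.467). The first was -1.41 when the array left out was included. In the BLA the differences from naive rats were -0.39 (SE 0.15, adjusted p = 0.785) and -0.51 (SE 0.14, adjusted p = 0.772), neither with overlap. Gpr61 had 1 sign in all 8 regions from naive to dependent rats, with differences of 0.08 to 0.63, against 5.03% of all such genes. From non-dependent to dependent rats 0 of 14 members had 1 sign throughout, against 2.49% of genes.

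Also in the CeA, Gpr37 read 10.16, 10.30, 10.52 and 10.27 in naive rats and 9.78, 9.43, 10.04 and 9.79 in dependent rats, a difference of -0.55 (SE 0.15, adjusted p = 0.467) with no overlap. The mean of the oligodendrocyte markers was 9.37 to 9.49 on the naive, 9.01 to 9.29 on the non-dependent and 8.69 to 9.11 on the dependent CeA arrays; its part in the Gpr37 values was not tested. Gpr37 was named here after its values were seen, because of its known cell type. Gpr61 in the CeA read 7.45, 5.66, 6.04 and 6.74 in naive rats and 7.51, 8.47 and 7.80 in non-dependent rats, a difference of 1.46 (SE 0.54, adjusted p = 0.705) that was 0.19 when the array left out (2.87) was included.

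Gpr158 had means below those of naive rats in both parts of the bed nucleus. In the vBNST the naive arrays read 10.71, 10.48, 10.43 and 10.31, the non-dependent arrays 10.32, 10.14, 10.15 and 10.29 and the dependent arrays 10.14, 10.06 and 10.06. The dependent arrays lay under all naive arrays. The differences were -0.26 (SE 0.10, adjusted p = 0.677) and -0.40 (SE 0.11, adjusted p = 0.151). The latter was -0.76 when the array left out (8.63) was included. In the dlBNST the naive arrays ran from 9.35 to 9.98 and the non-dependent arrays from 8.86 to 9.40, with a difference of -0.48 (SE 0.20, adjusted p = 0.724). Gpr89b of the Golgi differed by less but with a narrow spread in the dlBNST: dependent arrays read 4.83, 4.79, 4.82 and 4.94, under all naive (5.05 to 5.23) and non-dependent arrays (5.02 to 5.25), with differences of -0.28 and -0.27 (SE 0.09 each, adjusted p = 0.182 and 0.69). Gpr85 was higher there in dependent (9.08 to 9.38) than in naive arrays (8.70 to 9.05), by 0.33 (SE 0.12, adjusted p = 0.212).

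In the mPFC, 3 members with a higher level than in other regions had lower means in rats that drank. The non-dependent arrays of Gpr137 read 3.94, 4.54, 4.07 and 4.05, under all naive arrays, and the dependent arrays 4.94, 4.03, 5.26 and 4.16. From naive to non-dependent rats the difference was -1.02 (SE 0.25, adjusted p = 0.0909). Gpr107 read 4.79, 4.84, 4.71 and 4.95 in non-dependent and 4.94, 4.75, 5.42 and 5.17 in dependent rats, and Gpr162 read 8.76, 8.93, 8.90 and 8.78 and 8.96, 8.51, 9.61 and 8.45. The difference of Gpr162 from naive to dependent rats was -0.56 (SE 0.22, adjusted p = 0.24). Without mPFC dependent 3, Gpr137 passed the threshold in both comparisons with naive rats (-1.02, adjusted p = 0.0257 and -0.80, adjusted p = 0.0485) and Gpr162 in that with dependent rats (-0.80, adjusted p = 0.0146). In that setting 271 genes were called in the mPFC from naive to non-dependent and 602 from naive to dependent rats, against 7 and 5 with all arrays. The middle Gapdh probe set moved alongside, at 12.28 to 13.14 on naive, 11.69 to 12.19 on non-dependent and 11.45 to 12.87 on dependent mPFC arrays; its part in these differences was not tested. Gpr61 had the opposite sign from naive to non-dependent rats, with 0.92 (SE 0.35, adjusted p = 0.2), which was 0.60 without mPFC non-dependent 3 and 0.49 with the mean of probe sets.

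**Figure D5:**
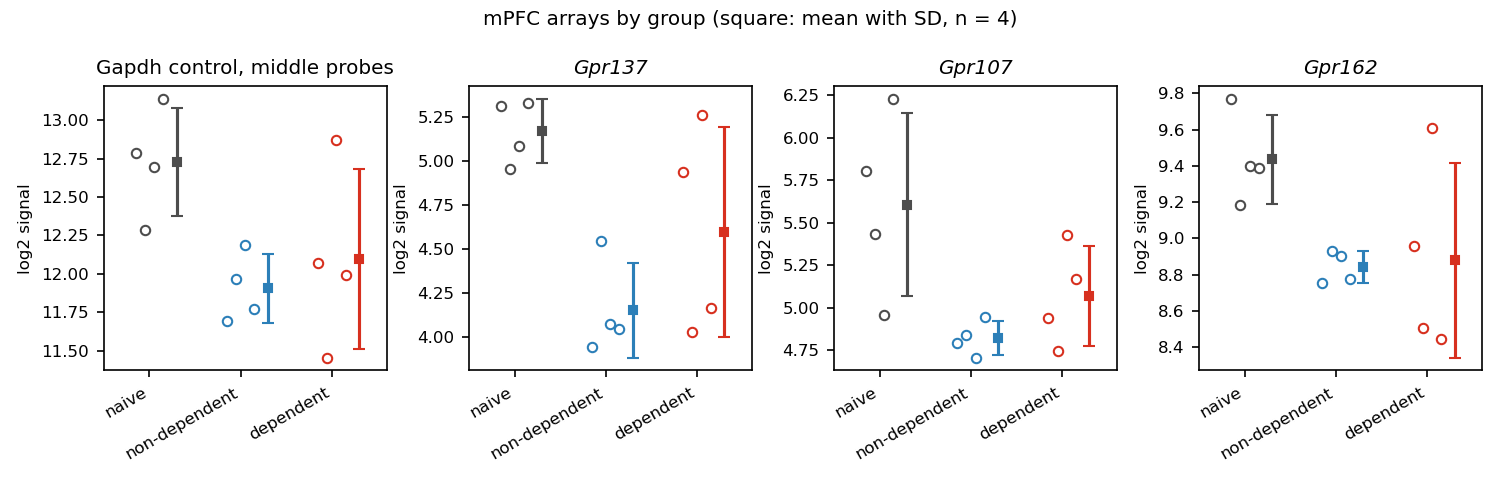
Log2 signal of the middle Gapdh probe set, Gpr137, Gpr107 and Gpr162 on the 12 mPFC arrays, by group; circles are arrays, squares with bars are means of 4 arrays with SD, and the scales do not start at 0. Naive arrays of Gpr137 (4.96 to 5.33) lie above all non-dependent arrays (3.94 to 4.54), and naive arrays of Gapdh (12.28 to 13.14) lie above all non-dependent arrays (11.69 to 12.19).

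In the VTA, 5 of 19 members had an unadjusted p under 0.05 from non-dependent to dependent rats (26.3%), against 15.3% of all genes, and of these Gpr85, Gpr89b, Gpr149 and Gpr176 had the higher mean in dependent rats. Gpr176 read 5.98, 6.11 and 6.00 in non-dependent and 6.76, 6.78, 6.32 and 6.43 in dependent rats, with no overlap and a difference of 0.54 (SE 0.14, adjusted p = 0.148). The naive arrays, at 6.16 to 6.52, lay above the non-dependent and overlapped with the dependent arrays. Gpr37 had the lower mean in dependent rats, by 0.35 (SE 0.14, adjusted p = 0.281), or by 0.53 without VTA non-dependent 3 and 0.23 without VTA non-dependent 4. The middle Gapdh probe set read 7.90 to 8.48 on the 3 non-dependent VTA arrays, 7.04 to 7.58 on the naive and 6.65 to 7.48 on the dependent arrays, and its part was not tested. From naive to dependent rats, Gpr149 differed by 0.86 (SE 0.33, adjusted p = 0.547), with dependent arrays at 7.98, 7.92, 6.89 and 6.49. Gpr182 read 4.35, 4.86, 5.06 and 4.03 in dependent rats, a difference of -1.63 (SE 0.65, adjusted p = 0.55) from the spread naive arrays, which was -0.87 without naive replicate 3. From naive to non-dependent rats Gpr89b differed by -0.39 (SE 0.13, adjusted p = 0.675) and Gpr108 by 0.31 (SE 0.14, adjusted p = 0.731), the latter 0.19 without VTA non-dependent 4.

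In the accumbens shell, Gpr137b differed by 0.59 from naive to non-dependent rats (SE 0.24, adjusted p = 0.951), Gpr83 by 0.68 from naive to dependent rats (SE 0.28, adjusted p = 0.383) and Gpr34 by -0.47 in both comparisons with dependent rats (SE 0.20 each, adjusted p = 0.403 and 0.606). Gpr149, whose level is highest there, read 9.91 to 10.70 in non-dependent and 9.72 to 10.85 in dependent rats, both overlapping with the naive arrays. None of these differences passed the adjusted threshold, and several moved with 1 array. That of Gpr137b was 0.37 without NAcSh naive 2 and 0.05 with the mean of probe sets, and that of Gpr83 was 0.92 without NAcSh naive 2 and 0.61 without NAcSh dependent 3. The difference of Gpr34 from non-dependent to dependent rats was -0.31 without NAcSh non-dependent 2, and from naive rats it was -0.60 without NAcSh naive 2. The medium spiny neuron markers of the NAcSh averaged 8.71 on naive arrays, 9.30 on non-dependent arrays and 9.19 on dependent arrays, and their part and that of the cortical markers in these values was not tested.

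Whether a group difference varied between regions was tested in 1 model of 92 arrays for the 19 members with a mean above 4 over these arrays. From naive to non-dependent rats, 1 of 19 was called, Gpr107 (F = 5.13, adjusted p = 0.011), against 1.68% of all genes. Its difference was -0.78 in the mPFC and -0.01 to 0.20 in the other 7 regions, and the adjusted p was 0.985 without the mPFC arrays. From non-dependent to dependent rats 0 of 19 were called, against 0.331% of genes, and from naive to dependent rats 0 of 19, against 2.28%. In the last comparison Gpr146 had the smallest adjusted p of the members, 0.0814. At an unadjusted p under 0.05 there were 3 of 19 members in each of the first 2 comparisons (Gpr85 and Gpr89b in both, with Gpr107 in the first and Gpr176 in the second) and 2 of 19 in the last (Gpr107 and Gpr146), against 11.7%, 11.3% and 17.7% of all genes.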

How the data were processed

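RNA of 96 microdissected samples was amplified, labeled with biotin and hybridized to Affymetrix arrays of the rat genome, from 30 or 50 ng of total RNA depending on the region. Per the labels, the authors used GCRMA 2.36.0 in R 3.03 to turn the scans into the deposited log2 signals; the choice of probe sets with Cleaner that followed in the study is not part of them. The table held 31099 probe sets, of which 20832 named 1 gene, 436 several and 9831 none in the platform annotation, and only the first were used. The arrays, with medians of 3.81 to 4.33, were not scaled again. The number of arrays limits the precision.

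Samples were grouped by the labels. With limma 3.58.1 in R 4.3.3, group differences were fitted per region on 92 arrays (genes with a region mean above 4), region differences on the 32 naive arrays without a filter, and region by group interactions on 92 arrays (mean above 4). P-values were adjusted over all genes by the Benjamini-Hochberg method, with a threshold of 0.05 and, between regions, a smallest difference of 1. The fits were tested on simulated data. The alternatives were all 96 arrays, other filters, quantile or median scaling, the mean of probe sets, array weights, the arrays of 1 comparison only, a replicate block, the t-test of the methods and each array left out in turn; leaving out the mPFC or NAcSh dependent 3 was chosen after seeing the data. Motifs and figures used Python 3.11.15, numpy 2.4.6, pandas 2.3.3 and matplotlib 3.10.9.

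The members and gene lists were chosen with earlier results of these data known. Members were named if they passed a threshold, were among the 25 with the largest range between regions, had the smallest p of a region and direction at an unadjusted p under 0.05, had 1 sign in all 8 regions, or had a mean above 6. Arrays were not paired by replicate number.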

Additional observations from a re-analysis of the deposited data

Results flagged for a closer look

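Over 64 groups of 4 arrays of the named members, 1 array stood apart from the other 3 by Dixon's criterion, where chance alone gives about 1 in 20 groups. It was NAcSh naive 2 for Gpr149, with a log2 signal of 8.79 against 10.22 to 10.45, a gap of 0.863 of the whole range. The same array had the higher cortical and the lower medium spiny neuron markers described above, whose part in this value was not tested.

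The difference of Gpr107 between naive and non-dependent rats varied between regions in the test of the interaction itself (adjusted p = 0.011), with -0.78 in the mPFC and -0.01 to 0.20 elsewhere. The middle Gapdh probe set of the mPFC arrays differed between the same groups, and its part was not tested.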

How the results depend on the processing

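Member calls between groups, 0 in each comparison, became 1 from naive to non-dependent rats with only the arrays of the comparison (Gpr137 in the mPFC) or with array weights, and 4 from non-dependent to dependent rats with array weights (Gpr161 in the BLA, Gpr37, Gpr85 and Gpr176 in the VTA), when array weights called 350, 1155 and 494 genes in the 3 comparisons. Without 1 array in turn the counts were 0 to 1 from naive to non-dependent, 0 to 2 from naive to dependent and 0 to 0 from non-dependent to dependent rats. Interaction calls from naive to non-dependent rats, 1 as reported, were 2 with no filter (Gpr107 and Gpr137) and 0 with a mean above 6, with the mean of probe sets or without the mPFC; from naive to dependent rats 1 appeared with no filter (Gpr182). Without 1 array in turn each interaction count was 0 to 1, and the call of Gpr107 was lost without mPFC naive 1 or naive 4.

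Between regions, the count of 20 members was 20 to 20 without 1 array in turn and 6 with a range of at least 2. With a difference of at least 2 the counts were 3 in the mPFC, 1 each in the NAcC, NAcSh, CeA and VTA, and 0 in the BLA, dlBNST and vBNST. The mean of probe sets gave 6 in the mPFC and 1 in the BLA, and median scaling 1 in the CeA. Non-dependent arrays gave 3 in the NAcC and 1 each in the CeA and BLA, and dependent arrays 3 in the NAcC and 1 each in the BLA and dlBNST. Without the mPFC arrays there were 3 in the NAcC, 1 each in the NAcSh and BLA and 0 in the vBNST. Without 1 array in turn the ranges were 9 to 10 in the mPFC, 4 to 6 in the NAcC, 2 to 3 in the NAcSh, 1 to 2 in the CeA, BLA and dlBNST, 1 to 1 in the vBNST and 4 to 5 in the VTA. With the mean of probe sets, which takes in dimmer ones, contrasts in the mPFC were -1.50 for Gpr61, -0.53 for Gpr146 and -0.64 for Gpr180, in the BLA 0.58 and in the VTA -0.79 for Gpr61, 0.63 for Gpr155 in the NAcC and 1.45 for Gpr182 in the VTA, and in the CeA Gpr61 differed by 0.82 from naive to non-dependent and Gpr146 by -0.39 from naive to dependent rats. Where no cause is named, the cause was not tested.

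Over the named members, 605 values between groups under the alternatives kept direction and side of the threshold, 7 came to pass it and 0 reversed; between regions 1073 kept both, 62 no longer passed and 0 reversed. Same-numbered arrays of a region correlated between groups by -0.37 to 0.46 (median 0.01, over 0.1 in 27 of 88 pairs), so the numbers were not taken to pair them. Between regions of 1 group, such arrays correlated over 0.1 at every number in 6 of 28 region pairs of naive rats (NAcSh and BLA 0.18 to 0.45, NAcC and CeA 0.24 to 0.34), 1 of non-dependent and 1 of dependent rats, a hint from the data that no label states. With the replicate block, member calls were 0, 0 and 0 between groups and 1, 0 and 0 for the interactions, and the counts between regions did not change.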
